A study of Oryza sativa with 6 samples.

Results

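OsAOX1A (LOC4336874, chromosome 4 of rice) encodes a mitochondrial alternative oxidase. It was followed through every array of a study of CHR729 mutant seedlings. Its members are the probe sets that the array annotation assigns to the gene with the symbol or synonym OsAOX1A, and 1 of the 57258 tested probe sets, and so 1 of 17905 measured genes, met this rule. No other gene in the rice gene table carried an AOX symbol or synonym, so further alternative oxidase genes of rice could not be picked out by name. A gene without a name, also among the neighbours of OsAOX1A given below, could still be such a gene. The gene was chosen by the difference in its signal between mutant and wild type on these arrays, so its own values are given as a description, without a test.

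The study compared 3 samples of seedlings with a T-DNA insertion mutation in CHR729, a gene for a CHD-type chromatin remodelling protein, with 3 samples of wild-type seedlings of the rice cultivar Hwayoung. All seedlings were 11 days old and grew on agar medium with sucrose under cycles of 14 h of light and 10 h of dark. Total RNA of each sample went to its own Affymetrix Rice Genome Array. The labels call the samples biological replicates, name the tissue only as seedling, do not say whether plants were pooled, and give 1 mutant allele, with no second allele or rescued line used here.

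The alternative oxidase sits in the inner mitochondrial membrane. It takes electrons from ubiquinol and passes them directly to oxygen, so that electrons by-pass the cytochrome complexes, and it pumps no protons itself. In plants it is known to keep respiration running when the cytochrome pathway is limited and to restrain the formation of reactive oxygen species. In rice and in Arabidopsis, transcripts of AOX1-type genes are known as stress-responsive, in rice to cold among others.

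The OsAOX1A signal, a MAS5 value on a linear scale, was 96.96, 101.2 and 144.9 in wild-type replicates 1, 2 and 3. In mutant replicates 1, 2 and 3 it was 426.3, 365.3 and 329.7. All 3 mutant arrays lay above all 3 wild-type arrays, and the groups did not overlap. All mutant arrays lay above all wild-type arrays in 23.1% of the measured genes, and the groups were apart in either direction in 42.9%; nothing is read from this for OsAOX1A, which was chosen on it. The lowest mutant signal was 2.28 times the highest wild-type signal. Within a genotype the highest array exceeded the lowest 1.49-fold in wild type and 1.29-fold in the mutant.

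The group means were 114.4 ± 26.6 in wild type and 373.8 ± 48.9 in the mutant (SD, n = 3), a ratio of 3.27. On the scale log2(signal + 32), on which the fits were made and which makes small the differences of dim probe sets, the difference (mutant minus wild type) was 1.48 with a model standard error (SE) of 0.14. The antilog of this difference is 2.79-fold. The offset of 32 moves the size: the difference was 1.72 with an offset of 1 and 1.05 with an offset 4 times as high.

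**Figure D1:**
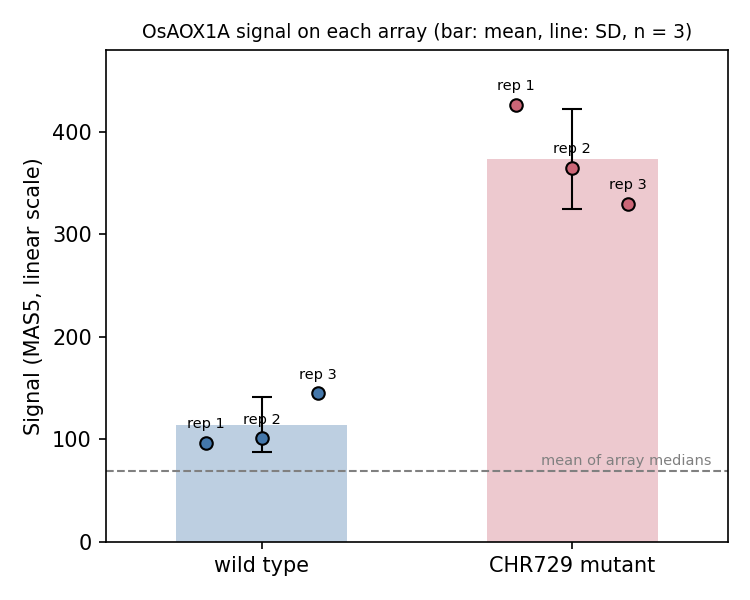
OsAOX1A signal (MAS5, linear scale) on each of the 6 arrays, with bars for the group mean and lines for the SD (n = 3 per group). Wild-type arrays lie between 96.96 and 144.9 and mutant arrays between 329.7 and 426.3, and the dashed line marks the mean of the array medians.

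In wild type the gene was a transcript of middling brightness. Its signal was 1.40, 1.48 and 2.09 times the median of its array in replicates 1, 2 and 3, and it was brighter than 59.3%, 61.0% and 68.2% of the probe sets. In the mutant it stood at 6.0, 5.19 and 4.88 times the array median and above 85.5%, 83.6% and 82.5% of the probe sets. The array medians themselves lay between 67.6 and 71.1.

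In the order of the signed log2 difference, from the largest rise down, OsAOX1A was at place 100 of all 57258 probe sets. It was at place 51 of the 22436 that name 1 gene. Falls of a larger size are not counted ahead of it in this order. A shorter order held the 337 probe sets that rose and name a gene with a name rather than a locus number. OsAOX1A took place 5 there, on the same difference that it was chosen by, so this is a description and not a test. The 3 next above it were mfs1 (log2 difference 1.61, SE 0.10), OsJAZ2 (2.03, SE 0.11), a repressor of jasmonate responses, and LOX1.1 (3.05, SE 0.33), a lipoxygenase gene. The 3 next below it were LOC4351188 (1.42, SE 0.21), listed as a chitinase gene, OsHsp24.1 (1.37, SE 0.11), a small heat shock protein gene, and LOC4344277 (1.37, SE 0.20), listed as a peroxidase gene. The differences of mfs1, LOC4351188, OsHsp24.1 and LOC4344277 all lay within 1 SE of that of OsAOX1A, so its order among them is not firm.

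Some facts of the whole array set bear on what follows. In all, 9.91% of the probe sets differed, 5.48% higher and 4.42% lower in the mutant, at an adjusted p under 0.05 (limma, Benjamini-Hochberg over all tested probe sets). Of the 17905 genes, each represented by its brightest probe set, 10.9% rose and 8.71% fell (19.6% together), and these shares are the background for the gene counts below. For the counts at an unadjusted p under 0.05 (limma) the background is 3610 of the 17905 genes as higher and 3233 as lower. The leaf gene OsrbcS, for the small subunit of Rubisco, was among the brightest (15990 ± 112 in wild type and 16100 ± 438 in the mutant), and none of 5 leaf and none of 7 root marker genes passed the threshold (with limma, 1 leaf and 0 root genes had an unadjusted p under 0.05). Of the root markers 6 lay below the array medians, Lsi1, a silicon transporter gene, being brighter (341.9 and 306.5). Summed root marker signals were 566.1 to 627.7 in wild type and 494.9 to 576.4 in the mutant, and summed leaf marker signals 46260 to 48140 and 43960 to 47740. Of 13 seed markers 1 fell, the glutelin gene GLUA-2, from 369.2 ± 21.2 to 244.0 ± 11.4, and the summed seed signal was 1765 to 1891 in wild type and 1553 to 1642 in the mutant. Both meristem markers differed, in opposite directions: OSH1 rose by 0.78 (SE 0.10, adjusted p = 0.00112) and LOG fell by 1.23 (SE 0.23, adjusted p = 0.00787) on the log2 scale. The part of tissue composition in the differences was not tested, and in whole seedlings fewer cells of a type and less RNA per cell cannot be told apart.

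The genes around OsAOX1A on chromosome 4 were examined because the mutated gene encodes a chromatin remodelling protein. Most had no call: among the 10 genes on each side in the RefSeq gene order, 14 had a probe set that names 1 gene, and 2 of these rose (14.3%, against 10.9% of all genes, a like share) and none fell. With limma, 4 had an unadjusted p under 0.05 as higher and 0 as lower. The median log2 difference of the 14 was 0.13, from -0.16 to 0.91. The next gene after OsAOX1A was one of the 2 that rose.

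This next gene, LOC4336875, has no gene name in the table. Its signal was 84.29, 67.46 and 155.7 in wild-type replicates 1, 2 and 3 and 245.2, 231.6 and 166.4 in mutant replicates 1, 2 and 3. The groups did not overlap, but wild-type replicate 3 and mutant replicate 3 were close. It rose by 0.91 (SE 0.21, adjusted p = 0.0208) on the log2 scale. The call was lost when mutant replicate 1, mutant replicate 2, wild-type replicate 1 or wild-type replicate 2 was left out, with adjusted p from 0.0574 to 0.0910. Pearson's r with OsAOX1A was 0.92 for the log2 values over the 6 arrays and also 0.92 for the deviations from the genotype means. For comparison, 5% of the brighter probe sets that name 1 gene had an r of values above 0.94, and 5% had an r of deviations above 0.859. Among the neighbours LOC4336869 had a higher r of values (0.954), and OsGRF3, without a call, had an r of deviations of 0.875. In LOC4336875, as in OsAOX1A, wild-type replicate 3 was the highest of its genotype and mutant replicate 3 the lowest.

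The gene just before OsAOX1A, LOC4336873, likewise has no gene name in the table. Whether it encodes a further alternative oxidase cannot be told from the names used here. Its signal was 125.0, 127.1 and 145.5 in the wild-type arrays and 166.0, 165.1 and 196.3 in the mutant arrays, in the order of replicates 1, 2 and 3. The groups did not overlap, and the log2 difference of 0.34 (SE 0.10) missed the threshold (adjusted p = 0.0511). LOC4336869, at place 5 before OsAOX1A, was the other gene that rose, with a log2 difference of 0.52 (SE 0.10, adjusted p = 0.00810) and signals of 146.9 ± 11.4 in wild type and 224.0 ± 21.2 in the mutant. Among the measured genes without a call was OsGRF3, a growth-regulating factor gene at place 5 after OsAOX1A, with -0.16 (SE 0.11, adjusted p = 0.446).

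**Figure D2:**
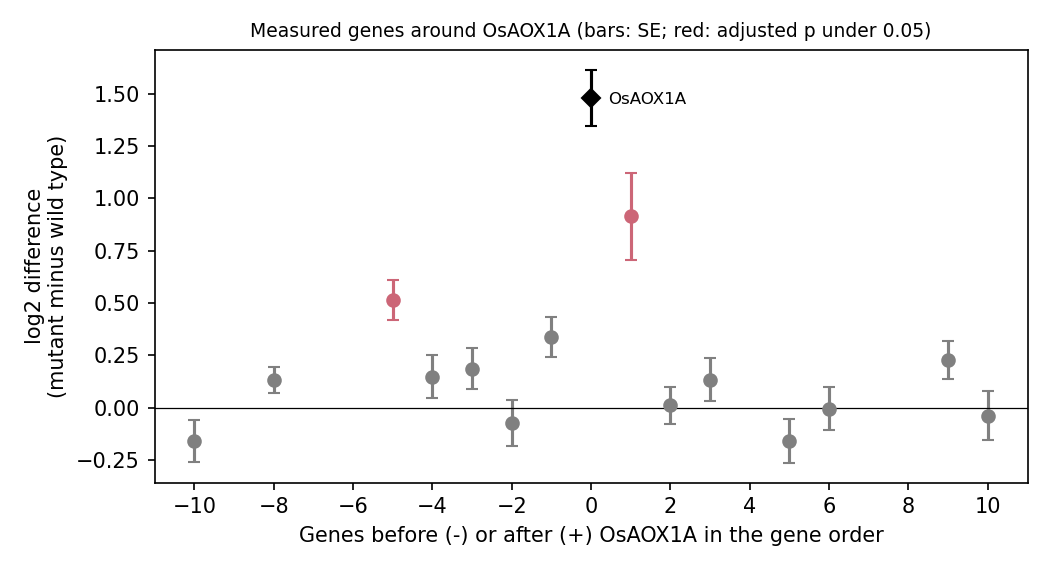
Log2 difference (mutant minus wild type, bars are the SE) of the 14 measured genes among the 10 before and the 10 after OsAOX1A, by their place in the gene order, not by distance. OsAOX1A (diamond, 1.48) stands above its neighbours, and the next gene after it (0.91) and the gene at place 5 before it (0.52) are the 2 that rose.

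The respiratory chain, from which the alternative oxidase draws its electrons, was represented by 11 named genes. Most encode succinate dehydrogenase subunits, and the others cytochrome c, a cytochrome c oxidase subunit and an ATP synthase subunit. The list is thus not the whole chain. Of the 11 genes, 5 rose, 6 did not pass and none fell, with a median log2 difference of 0.27 against 0.01 over all genes. The share called was 45.5%, against 19.6% of all genes, with no test of the list. With limma, 9 had an unadjusted p under 0.05 as higher and 0 as lower. All 11 differences were above 0, where 51.7% of all genes were, and they stayed above 0 under each alternative run. Summed signals of the 11 genes were 15230 to 15880 on the wild-type arrays and 19280 to 20030 on the mutant arrays.

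CC-1, the gene for cytochrome c, which carries electrons to the terminal oxidase of the cytochrome pathway, had signals of 2830, 3077 and 3061 in wild type and 4350, 4263 and 4061 in the mutant. The groups did not overlap, and it rose by 0.49 (SE 0.08, adjusted p = 0.00367) on the log2 scale. Another CC-1 probe set rose by 0.74, and in the dimmest one the difference was 0.06 (adjusted p = 0.764). COX5c, a subunit gene of cytochrome c oxidase, the oxidase that the alternative pathway by-passes, rose by 0.38 (SE 0.09, adjusted p = 0.0247), from 2085 ± 192 to 2709 ± 16.3. The ATP synthase subunit gene atpB had 0.20 (SE 0.09, adjusted p = 0.218).

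Succinate dehydrogenase, complex II, feeds electrons from the tricarboxylic acid cycle into the ubiquinone pool that the alternative oxidase empties. Of its 8 measured subunit genes, 3 rose. SDH7 rose from 443.2 ± 25.0 to 652.4 ± 60.7 (0.52, SE 0.10, adjusted p = 0.00864). SDH5 and SDH3-1 rose by 0.41 each (SE 0.09, adjusted p = 0.0158 and 0.0176). The catalytic flavoprotein gene SDH1 had 0.17 (SE 0.10, adjusted p = 0.371). The brightest probe set of the iron-sulfur subunit gene SDH2-1 had 0.27 (adjusted p = 0.134), while 2 of its 3 dimmer probe sets rose, by 0.47 and 0.38. CC-1 alone of the 11 genes passed in the fit that left out mutant replicate 2. Leaving out mutant replicate 3 gave 2 calls, and leaving out either mutant replicate 1 or wild-type replicate 2 gave 3.

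Genes for porins of the outer mitochondrial membrane and for the import of proteins into mitochondria were called in a share of 75.0%, against 19.6% of all genes, with no test of the list. Of 8, 6 rose, 2 did not pass and none fell, with a median log2 difference of 0.50, and with limma 0 had an unadjusted p under 0.05 as lower. TIM9 and TIM13 encode small chaperones that carry membrane proteins across the space between the mitochondrial membranes. TIM13 had signals of 403.0, 330.4 and 425.8 in wild type and 667.6, 771.5 and 870.8 in the mutant, and TIM9 had 343.3, 313.1 and 352.6 against 560.1, 640.3 and 691.9. In neither gene did the groups overlap. TIM13 rose by 0.94 (SE 0.12, adjusted p = 0.00157) and TIM9 by 0.84 (SE 0.10, adjusted p = 0.00102). Unlike in OsAOX1A, mutant replicate 3 was the highest mutant array in both.

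The porin genes OsVDAC3, OsVDAC1, OsVDAC2 and OsVDAC5 rose by 0.66, 0.62, 0.39 and 0.36 on the log2 scale, with SE from 0.08 to 0.11 and adjusted p from 0.00363 to 0.0195. The value of OsVDAC1 is that of its brightest probe set, whose name marks shared probes, and of its 2 other probe sets 1 rose by 0.57 and 1 had 0.39 (adjusted p = 0.0541). OsVDAC6 had 0.05 (adjusted p = 0.838) in its brighter probe set and rose by 0.42 in a dim one (45.74 against 72.12). TOM20, for a receptor of the import pore, had 0.19 (SE 0.10, adjusted p = 0.336). In their brightest probe sets TIM9, TIM13, OsVDAC1 and OsVDAC3 passed in every alternative run. The calls of OsVDAC2 and OsVDAC5 were lost in fits that left out an array, so that the count was 4 without mutant replicate 2, mutant replicate 3 or wild-type replicate 2.

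**Figure D3:**
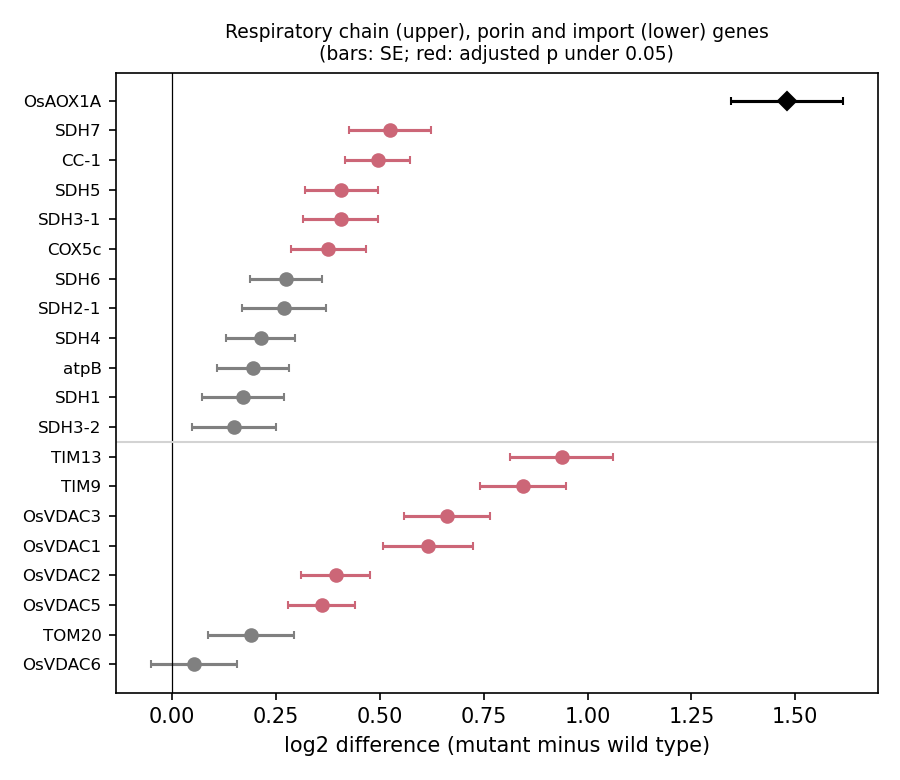
Log2 difference (mutant minus wild type, bars are the SE) of 11 respiratory chain genes and 8 porin and import genes, with OsAOX1A at the top. With all arrays, all 19 lie above 0 and below OsAOX1A (1.48), from 0.05 for OsVDAC6 to 0.94 for TIM13, and red points passed the adjusted p threshold.

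Genes around pyruvate and malate and genes of fermentation, which border on respiration, were called in shares of 12.5% and 15.4%, near the 19.6% of all genes. Of 8 genes for pyruvate dehydrogenase subunits, malic enzymes and pyruvate phosphate dikinases 1 fell and none rose, where with limma 3 and 0 had an unadjusted p under 0.05 in these directions; 2 fell without wild-type replicate 1 or wild-type replicate 3. OsPPDKB, a pyruvate phosphate dikinase gene, had a signal of 983.9 ± 3.34 in wild type and 593.9 ± 64.4 in the mutant, a log2 difference of -0.70 (SE 0.10, adjusted p = 0.00204). PPDK2 of the same family had -0.61 (SE 0.18, adjusted p = 0.0561). The 4 pyruvate dehydrogenase E1 genes lay between -0.09 and 0.13, and none passed. Of 13 genes of fermentation, sucrose cleavage and oxygen-binding globins 2 rose, both for sucrose synthases: OsSUS5 by 0.53 (SE 0.09, adjusted p = 0.00553) and OsSUS1 by 0.34 (SE 0.07, adjusted p = 0.0115). The alcohol dehydrogenase gene Adh2 had 0.37 with an SE of 0.30 and the globin gene OsNSHB1 had 0.30 with an SE of 0.33 in its brightest probe set, and neither passed. Of the 2 dimmer OsNSHB1 probe sets 1 rose by 0.40 (SE 0.11, adjusted p = 0.0442) and the other had 0.46 (SE 0.14, adjusted p = 0.061), and in both the groups did not overlap. The call of OsSUS1 was lost without mutant replicate 2 (adjusted p = 0.080).

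Of 15 genes for enzymes that remove superoxide and peroxide, 4 rose, 1 fell and 10 did not pass, with a median of 0.03. The share called was 33.3%, against 19.6% of all genes, with no test of the list. With limma, 4 had an unadjusted p under 0.05 as higher and 4 as lower. SodCc2 and SodCc1, for cytosolic copper/zinc superoxide dismutases, rose most. SodCc2 had signals of 1184, 1009 and 937.0 in wild type and 2033, 2148 and 2006 in the mutant, and SodCc1 1895, 1615 and 1687 against 3043, 3086 and 2980. Neither gene's groups overlapped. They rose by 0.97 (SE 0.10, adjusted p = 0.000447) and 0.80 (SE 0.09, adjusted p = 0.000536).

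The plastid superoxide dismutase gene sodCp rose by 0.33 (SE 0.08, adjusted p = 0.0232). The gene sodA, for the manganese enzyme of mitochondria, had -0.24 (SE 0.13, adjusted p = 0.324) in its brightest probe set. A dimmer sodA probe set had 0.40 (SE 0.28, adjusted p = 0.468) and another -0.03 (SE 0.08, adjusted p = 0.901). OsAPx6, known as a mitochondrial ascorbate peroxidase gene, rose by 0.41 (SE 0.09, adjusted p = 0.0164), and OsAPx5, its mitochondrial partner, had 0.22 (SE 0.10, adjusted p = 0.226). The catalase gene CAT-B fell by 0.39 (SE 0.09, adjusted p = 0.0208) in its brightest probe set, and its 4 other probe sets lay between -0.74 and -0.30, of which 2 passed. Without mutant replicate 2, mutant replicate 3 or wild-type replicate 2, SodCc1 and SodCc2 were the 2 that rose and no gene of the list fell, and no gene fell without wild-type replicate 1. Without mutant replicate 1, 3 genes rose and 3 fell, and without wild-type replicate 3, 4 rose and 2 fell.

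Of 34 genes for peroxiredoxins, thioredoxins and glutaredoxins, small proteins of thiol redox control, 4 rose and 3 fell, with a median of -0.01. This is a share of 20.6%, near the 19.6% of all genes, so nothing is read from the count. With limma, 6 had an unadjusted p under 0.05 as higher and 5 as lower. The 2 largest differences were both in glutaredoxin genes and went opposite ways. GRXS6 rose from 467.1 ± 70.3 to 1002 ± 51.0 (1.06, SE 0.11, adjusted p = 0.000464), and GRXS5 fell from 2920 ± 269 to 1511 ± 296 (-0.95, SE 0.14, adjusted p = 0.00232). GRXC8 rose by 0.36 (SE 0.08, adjusted p = 0.0211), and the plastid thioredoxin gene OsTrxm5 fell by 0.39 (SE 0.09, adjusted p = 0.0208) in a probe set whose name marks shared probes, with -0.22 (adjusted p = 0.231) in another. PRXIIF, whose Arabidopsis counterpart is the mitochondrial peroxiredoxin, rose by 0.43 (SE 0.11, adjusted p = 0.0352). GRXS5 and GRXS6 passed in every alternative run. These 2 genes were the only calls of this list in the fits that left out mutant replicate 2 or mutant replicate 3. Leaving out wild-type replicate 2 gave 1 higher and 2 lower, leaving out mutant replicate 1 gave 1 higher and 3 lower, and in the other 2 such fits 4 genes were higher.

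The NADPH oxidase gene OsrbohB, for an enzyme of the plasma membrane that makes superoxide, fell from 1207 ± 116 to 834.7 ± 23.0 (-0.51, SE 0.10, adjusted p = 0.00852), and this call was lost without mutant replicate 2 (adjusted p = 0.0598). Of 9 genes for FtsH proteases, membrane-bound enzymes of plastids and mitochondria, 4 fell and none rose. This is a share of 44.4% called, where 19.6% of all genes were called and 8.71% fell, with no test of the list. With limma, 0 had an unadjusted p under 0.05 as higher. The 5 without a call lay between -0.11 and 0.09. Plastid and mitochondrial members were not told apart, so the 4 calls cannot be assigned to mitochondria. OsFTSH2 fell by 0.40, OsFTSH9 by 0.45, OsFTSH7 by 0.46 and OsFTSH1 by 0.35, with SE from 0.09 to 0.13 and adjusted p from 0.0175 to 0.0478. A dim OsFTSH9 probe set had -0.16 (adjusted p = 0.504). No FtsH gene passed in the fits that left out mutant replicate 2, mutant replicate 3 or wild-type replicate 2, and 1 passed when wild-type replicate 1 was left out.

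Over the 8 lists together, 21 of 99 genes rose and 10 fell, which is 31.3% against 19.6% of all genes. The listed genes are mostly bright: none in the respiratory chain, porin and import, or superoxide and peroxide lists lay below the array medians. The 19.6% was not taken over genes of like brightness, so the 2 shares are not a like comparison. The largest rise in the lists, 1.06 for GRXS6, was smaller than the difference of OsAOX1A. Leaving out mutant replicate 2 gave 9 and 2, leaving out mutant replicate 3 gave 11 and 3, and leaving out wild-type replicate 2 gave 12 and 4. The counts over all probe sets also became smaller in these fits, for example 1358 higher and 916 lower when mutant replicate 2 was left out, from 3140 and 2532 with all arrays.

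**Figure D4:**
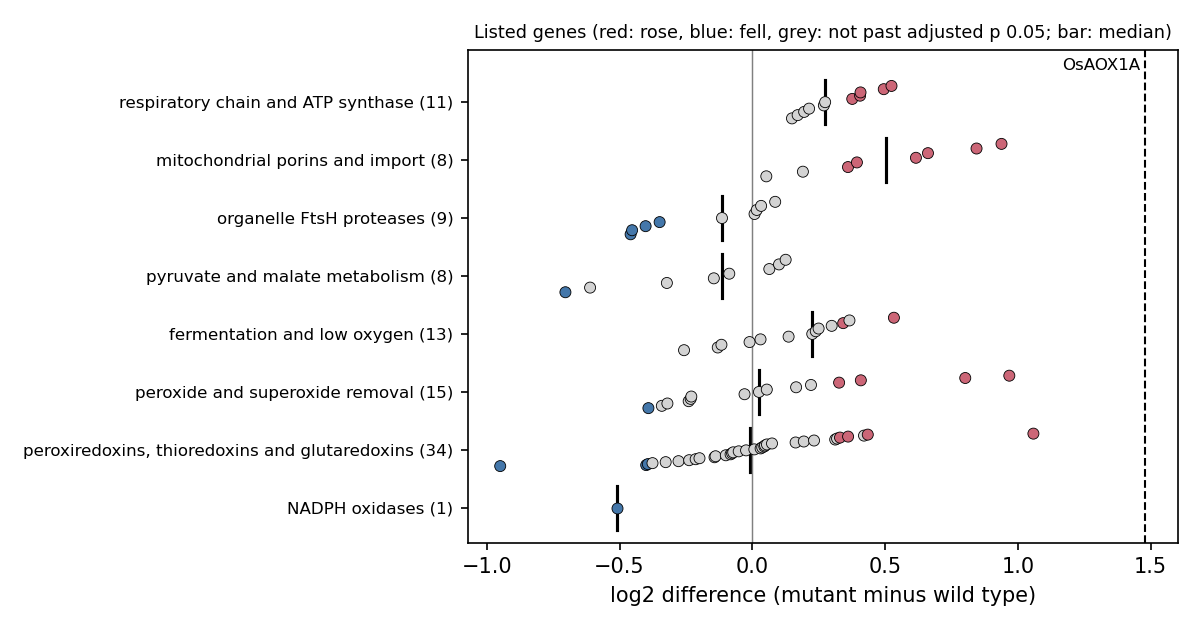
Log2 difference (mutant minus wild type) of each listed gene, by list, with the number of genes in brackets, the median as a bar and OsAOX1A as a dashed line at 1.48. Respiratory chain, porin and import genes lie above 0, FtsH calls lie below 0, and the 2 antioxidant lists hold genes on either side.

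The genes with the most similar array pattern were sought among 16925 probe sets that name 1 gene and lie at or above the median signal. With the correlation of log2 values over the 6 arrays as the measure, the 8 closest genes with a name were OsRPT5a, XAT2, HMG3, OsCesA1, USP, CSase, ARP3 and OsGDH1, with r from 0.988 to 0.996. This measure is largely the difference between the genotypes, and 625 of the probe sets (3.69%) had r above 0.95. OsRPT5a, for an ATPase subunit of the proteasome, was closest, with signals of 1149, 1134 and 1208 in wild type and 1485, 1478 and 1432 in the mutant. Its log2 difference of 0.32 (SE 0.08) was much smaller than that of OsAOX1A. OsGDH1, for a glutamate dehydrogenase, an enzyme known from mitochondria, had 458.8, 496.9 and 538.2 in wild type and 721.4, 668.4 and 642.1 in the mutant, with the order of replicates within each genotype that OsAOX1A had.

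A second measure, the correlation of the deviations from the genotype means, leaves the difference between the genotypes out. With it the 8 closest genes with a name were AL1, OsTBL13, OsTUB6, OsMSRB3, OsCAD3, OsBZR3, OsCesA4 and MHZ4, with r from 0.983 to 0.999. None of these 8 passed the threshold between the genotypes, and their log2 differences lay between -0.32 and 0.25. AL1 had 206.8, 213.9 and 259.2 in wild type and 226.8, 206.2 and 191.5 in the mutant. OsTUB6, a tubulin gene, had 1232, 1244 and 1390 against 1305, 1218 and 1201. In all 8, as in OsAOX1A, wild-type replicate 3 was the highest wild-type array and mutant replicate 1 the highest mutant array. The 6 deviations of a gene share 2 group means, so that high values arise easily, and 5% of the 16925 probe sets had r above 0.859.

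**Figure D5:**
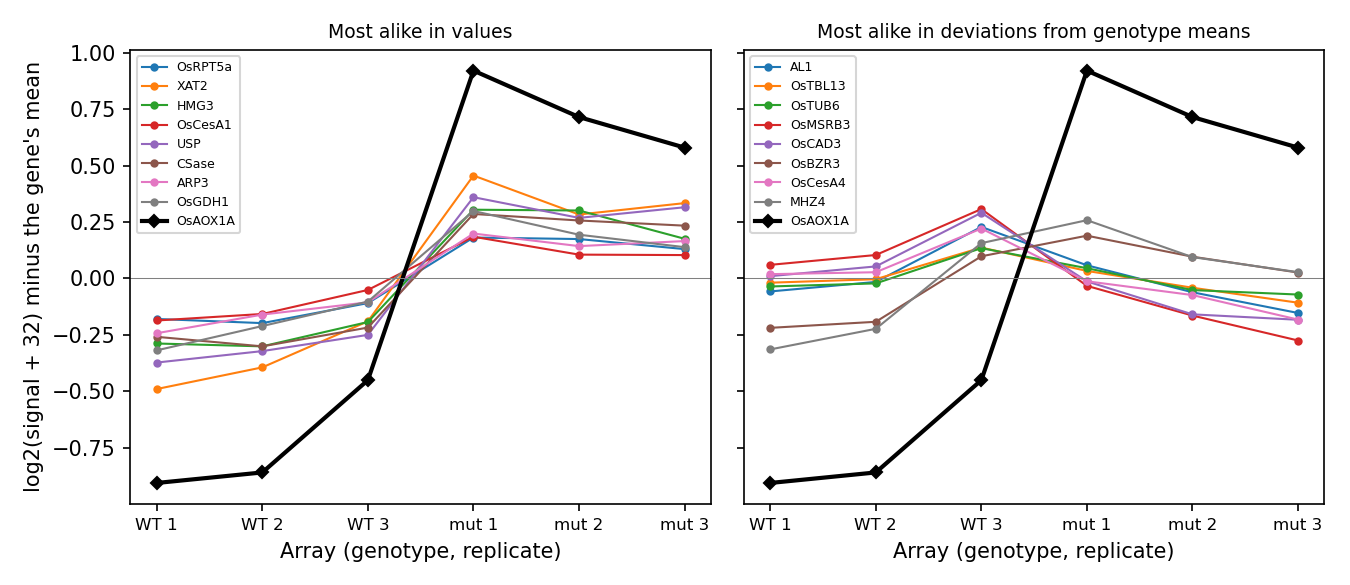
Values of log2(signal + 32) on each array, minus the mean of the gene over the 6 arrays, for OsAOX1A (black) and the 8 named genes most alike by each measure. In the left panel all genes step up from wild type to mutant by less than OsAOX1A, and in the right panel they share its order of arrays within a genotype without a called difference between the genotypes.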

How the data were processed

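The deposited table holds the intensity of each probe set on each array, a linear value that the authors made with MAS5, per the submitters' processing notes; the sources used here give neither its version nor its scaling target, and detection calls were not used. Of 57381 probe sets, 123 control probe sets were left out. Signals were taken as log2(signal + 32) and fitted with limma 3.58.1 under R 4.3.3 (eBayes with an intensity trend, 2-sided), with Benjamini-Hochberg adjustment over all 57258 probe sets and a threshold of 0.05. The procedure was tested on simulated data. "Rose" and "fell" mean past this threshold. The number of arrays, 3 per group, limits the precision, and a permutation test of 3 against 3 could not pass the threshold.

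Genes were assigned to probe sets from GEO's platform annotation, and names and gene order came from the RefSeq gene table (assembly ASM3414082v1). 22436 probe sets named 1 gene, 95 several and 34727 none; no coordinates are given because the array files name no build. Sequences were not used here, so no motif was searched. Whether the OsAOX1A probes also bind transcripts of related oxidase genes was not tested. Python 3.11.15 with pandas 2.3.3 made the tables, and matplotlib 3.10.9 drew the plots.

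The gene, the lists and the tests were chosen with earlier results of these data known. Lists were written as symbol patterns; matches that belong to other genes by their synonyms were removed by name, and patterns for alternative NAD(P)H dehydrogenases and organelle RNA processing left no usable gene. Each gene is represented by its brightest probe set. Named genes are OsAOX1A, up to 4 members per list with the lowest p, called genes among 10 on either side, the 8 most alike by each measure and the 3 next above and below in size; further list members and LOC4336873 were named after their values were seen.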

Additional observations from a re-analysis of the deposited data

How the results depend on the processing

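The log2 difference of OsAOX1A was 1.72 with an offset of 1, 1.05 with an offset 4 times the one used and, in an alternative chosen after seeing the data, 1.71 as the log2 ratio of mean signals without an offset. It was 1.39 to 1.62 when an array was left out. The number of probe sets that rose was 1358 to 3511 and of those that fell 916 to 2838 when an array was left out. For the listed genes these counts were 9 to 22 and 2 to 12, and for the genes next to OsAOX1A 1 to 3 rose. The samples share only a replicate number: same-numbered deviations from the group means correlated at 0.00778, -0.193 and 0.129 over 34355 probe sets. With the replicate number as a block, 2730 probe sets rose and 2385 fell, and 19 listed genes rose and 10 fell. The block did not change the difference of OsAOX1A, by construction. Quantile normalization, median subtraction, array weights, no intensity trend and leaving out the 40% dimmest probe sets left the counts over all probe sets and over all listed genes within 1.5 times those reported. Of the genes that remove superoxide and peroxide, 2 rather than 1 fell with median subtraction, without the intensity trend and without the dimmest probe sets. Of 33 single-gene calls among listed and neighbouring genes, 12 passed in every alternative that kept them, 21 were lost in at least 1, and none reversed. Counting a listed gene when any of its probe sets passed gave 25 that rose and 10 that fell.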
